A study of Mus musculus with 2 samples.

Results

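The miRNA precursors from 3 imprinted loci outside the Dlk1-Dio3 cluster were followed in ischemic mouse hindlimb muscle. They are miR-675 (mmu-mir-675) of the H19 gene, miR-483 (mmu-mir-483) of the Igf2 gene, miR-335 (mmu-mir-335) of the Mest gene, and miR-296 (mmu-mir-296) and miR-298 (mmu-mir-298) of the Gnas locus. They were chosen by precursor name, and all 5 were found in both libraries among 1187 listed precursors. Small RNA was sequenced from hindlimb muscle 1 day after the femoral artery had been surgically removed. The hypercholesterolemic library (HC) came from ApoE-/- mice, which the series' design text says received a high-fat diet, and the normocholesterolemic control library (NC) came from C57Bl/6 mice. Strain background of the ApoE-/- mice, diet of the control mice, age and sex: none of these is stated in the labels. Both groups had undergone ischemia, so no library from muscle without ischemia enters the comparison. Loss of ApoE and the diet cannot be told apart. There was 1 library per group, and the number of mice behind each is not stated. No test of the conditions was possible, and every interval below is a nominal 95% interval that covers counting error only.

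An imprinted gene is expressed mainly from the copy inherited from 1 parent. H19, a noncoding RNA that is abundant in embryonic muscle and is induced again in regenerating muscle, is expressed from the maternal copy and is the source of miR-675. Igf2, the gene of insulin-like growth factor 2, lies beside H19 and is expressed from the paternal copy, and a shared control region with CTCF binding sites sets which of the genes is used. Mest is also expressed from the paternal copy. The Gnas locus encodes the stimulatory G protein alpha subunit and several imprinted transcripts, among them the antisense RNA Nespas. miR-675 is known to act on regulators of growth and differentiation, including the IGF1 receptor. miR-296 is known from endothelial cells, where it raises the levels of growth factor receptors during angiogenesis.

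The RefSeq table for GRCm38.p6 matched all 5 precursors and gave 10 mature arms. They are shown because the seed, bases 2 to 8 counted from the 5′ end, directs target choice. The seed is in capitals.
miR-675-5p: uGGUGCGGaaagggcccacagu
miR-675-3p: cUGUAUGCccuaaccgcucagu
miR-483-5p: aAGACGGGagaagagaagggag
miR-483-3p: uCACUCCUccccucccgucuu
miR-335-5p: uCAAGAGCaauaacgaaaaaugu
miR-335-3p: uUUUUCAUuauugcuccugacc
miR-296-5p: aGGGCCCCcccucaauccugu
miR-296-3p: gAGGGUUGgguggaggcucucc
miR-298-5p: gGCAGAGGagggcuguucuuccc
miR-298-3p: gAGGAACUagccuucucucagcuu
The 10 arms carried 10 distinct seeds. None of them was found in any other mature miRNA among the 1679 names of that table, in which 72.1% of names had a seed of their own. The members therefore do not form a seed family, and what they have in common is their imprinted location.

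The deposited counts are per hairpin and add the reads of both arms, so it is not known which of the arms above was sequenced. The hairpins of the H19-Igf2 locus are printed because the largest differences among the 5 members were found there, with the mature arms in capitals.
miR-675 hairpin: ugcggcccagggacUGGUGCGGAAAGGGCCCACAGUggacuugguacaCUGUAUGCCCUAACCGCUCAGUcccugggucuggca
miR-483 hairpin: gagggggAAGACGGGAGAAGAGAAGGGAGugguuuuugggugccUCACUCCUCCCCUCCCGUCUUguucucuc
The G and C content was 63.1% in the miR-675 hairpin, 58.9% in miR-483, 63.3% in miR-296 and 53.7% in miR-298. It was 42.9% in miR-335, the only member below the median of 51.7% over the 974 hairpins that matched the table.

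In mm10, miR-675 lies on the minus strand at chr7:142577064-142577147. In the GENCODE M21 annotation of GRCm38 it falls in an exon of H19 in 3 of 4 spanning transcripts, and in an intron in the other. Fragments of the H19 RNA and reads of mature miR-675 cannot be told apart in a hairpin count. miR-483 lies on the same strand at chr7:142654924-142654996, with 77776 bases between it and miR-675. It is intronic in all 7 spanning transcripts of Igf2 and in 1 transcript of the overlapping gene model Gm49394. miR-335 lies on the plus strand at chr6:30741299-30741396 and is intronic in all 7 spanning transcripts of Mest. miR-296 (chr2:174267047-174267125) and miR-298 (chr2:174267504-174267585) lie on the minus strand, 378 bases apart. No other annotated gene spans them, and the nearest was Nespas, whose closer end lies 13651 bases from miR-298. No member overlaps another listed precursor, so none shares reads through an overlap.

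**Figure D1:**
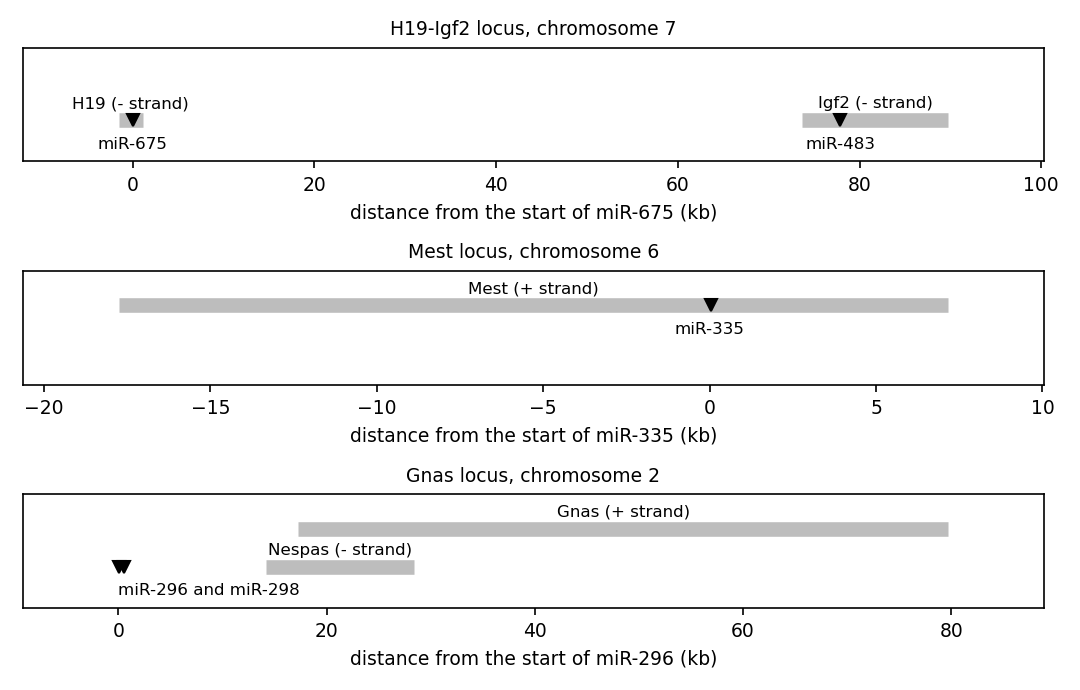
Map of the 3 imprinted loci, with the distance in kb from the first miRNA of each on the x axis, grey bars for gene bodies (upper track plus strand, lower track minus strand) and triangles for the members. miR-675 and miR-483 lie inside H19 and Igf2, miR-335 inside Mest, and miR-296 and miR-298 outside Nespas and Gnas.

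The libraries held 31198050 counts over precursors in HC and 43848576 in NC. Levels below are CPM, counts per 1000000 of a library size scaled by the trimmed mean of M-values (TMM). In HC a single count was worth 0.0306 CPM and in NC 0.0239 CPM. The labelled tissue was checked against 8 muscle miRNA precursors (miR-1, miR-133, miR-206, miR-486, miR-499 and miR-208b), all with counts in both libraries, whose levels summed to 212712 CPM in HC and 258001 in NC. The sum was set largely by miR-486a (141556 against 187306 CPM). By their counting intervals 4 of the 8 were higher in HC (both miR-1a precursors, miR-208b and miR-499) and 4 lower, of which miR-133a-1 (-0.01) and miR-206 (-0.09) turn above 0 with plain totals, a shift of 0.13. Counts of precursors do not measure Apoe, so the genotype label was not checked. The liver miRNA miR-122 was at 0.214 CPM in HC and 0.215 in NC.

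miR-335 was by far the most abundant member, and the rest were rare. It took 86.6% of the members' summed counts in HC (exact Clopper-Pearson interval 85.1 to 88.0%) and 76.6% in NC (74.8 to 78.3%), and it ranked 149th by count in HC and 160th in NC among the 1187 precursors. miR-298 ranked 248th in both libraries, while miR-483 ranked 296th and 264th. miR-296 and miR-675 ranked between 322nd and 349th in both.

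The order of levels was miR-335, miR-298, miR-483 in both libraries, followed by miR-296 and miR-675, which changed places. Each neighbouring pair down to the fourth place differed beyond counting error. The closest of these was miR-298 against miR-483 in NC, where miR-298 held 58.0% of the pair's counts (53.3 to 62.7%). miR-296 held 54.2% of its summed counts with miR-675 in HC (39.2 to 68.6%), and miR-675 held 59.6% of that sum in NC (49.0 to 69.6%), so the last places were not separated in either library. The order was the same per 100 bases of hairpin, where miR-335 reached 58.0 CPM in HC and 42.7 in NC, and miR-675 reached 0.801 and 1.59.

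**Figure D2:**
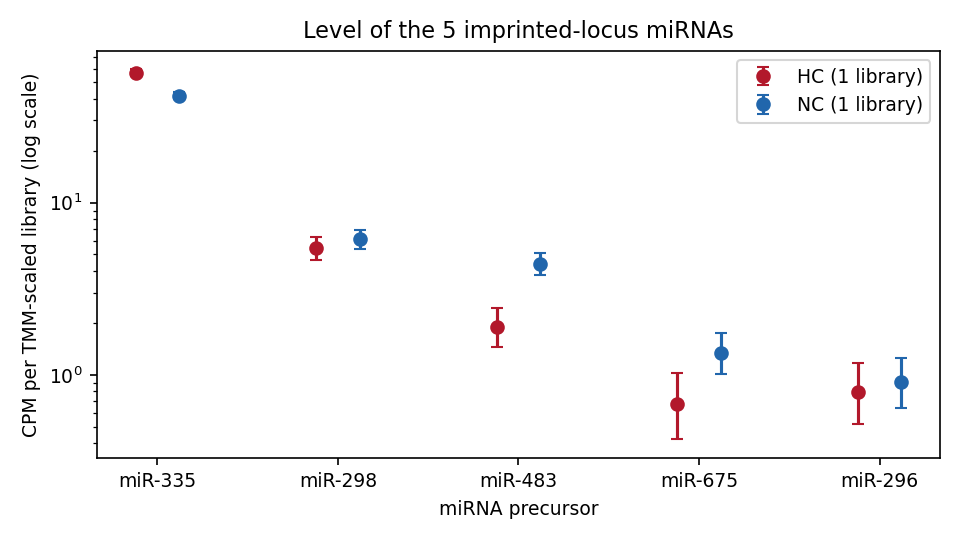
CPM per TMM-scaled library (log scale) of the 5 precursors in HC (red) and NC (blue), 1 library each, with bars for the exact 95% counting interval. miR-483 and miR-335 have intervals that do not overlap between the libraries, with miR-483 lower in HC (1.90 against 4.42 CPM) and miR-335 higher (56.9 against 41.9 CPM).

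The members did not move in 1 direction. miR-483 and miR-675 were lower in HC, miR-335 was higher, and for miR-296 and miR-298 the counting interval held equality. In bulk tissue, fewer cells of a type and less RNA per cell cannot be told apart. A size rule stood in for a test: a mean of at least 10 CPM over both libraries, a fold of at least 2 and an interval that excludes equality. Only miR-335 reached that mean, and it missed the fold, so 0 of 1 compared member was called, beside 2.25% of all 222 precursors compared. With at least 10 counts over both libraries in place of the CPM limit, all 5 members entered the comparison. Then miR-483 alone was called, as lower, beside 3.17% of 473 precursors called lower. At a mean of 1 CPM or more, which 4 members reached, miR-483 was again the only call, beside 1.49% of 335 precursors called lower.

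miR-483, which is cut from an Igf2 intron and has been studied as a regulator of growth and apoptosis genes, was counted 62 times in HC and 185 times in NC. These counts correspond to 1.90 CPM in HC (1.45 to 2.43) and 4.42 CPM in NC (3.81 to 5.10). The level was thus lower in HC and the intervals of the libraries lay apart. The log2 fold of HC over NC was -1.22 (-1.66 to -0.80), a 2.33-fold lower level (1.74 to 3.16). Of the 473 precursors with at least 10 counts, 20 had a lower log2 fold, and the central 90% ran from -1.06 to 0.97. At a mean of 0.5 to 10 CPM, where miR-483 and 3 of the other members lie, 4.38% of 160 precursors were called lower. miR-483 kept a fold of at least 2 under all 5 scalings of library size that were computed.

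miR-675, the product of the H19 transcript, was counted 22 times in HC and 56 times in NC. Its level was 0.673 CPM in HC (0.422 to 1.02) and 1.34 CPM in NC (1.01 to 1.74). The value was lower in HC, and the single-library intervals overlapped only at their ends. The log2 fold was -0.99 (-1.77 to -0.26), a 1.99-fold lower level (1.19 to 3.42), just short of the limit of 2. It passed the limit with the authors' own denominators, at -1.10, and 27 of the 473 precursors had a lower value. An interval below equality, as miR-675 had, was found for 28.1% of the 473. With a limit of 1.5-fold, miR-675 and miR-483 were both called lower, beside 6.55% of the 473 precursors.

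The proportion between the products of the H19-Igf2 locus was similar in the libraries. miR-675 made up 26.2% of their summed counts in HC (22 of 84, 17.2 to 36.9%) and 23.2% in NC (56 of 241, 18.1 to 29.1%). These shares do not depend on how the libraries are scaled, and their difference was within counting error. The summed level was 2.57 CPM in HC and 5.76 in NC, a log2 fold of -1.16 (-1.54 to -0.80).

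miR-335, from a Mest intron and known from mesenchymal stem cells, was counted 1859 times in HC and 1752 times in NC, although the HC library was the smaller. Its level was 56.9 CPM in HC (54.3 to 59.5) and 41.9 CPM in NC (39.9 to 43.9). HC was the higher library, with intervals apart. The log2 fold was 0.44 (0.35 to 0.54), a 1.36-fold higher level (1.27 to 1.45). An interval that lies above equality is common at this depth: 39.6% of the 222 precursors of 10 CPM or more had one. Among them 15 had a higher log2 fold than miR-335, and it lay inside their central 90% of -0.47 to 0.47. The value ranged from 0.33 with the authors' denominators to 0.58 with plain totals, always above 0.

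For the Gnas locus no difference was detectable at this depth. miR-298, for which the beta-secretase Bace1 is a known target in mouse, had 177 counts in HC and 256 in NC. Its level was 5.42 CPM in HC (4.65 to 6.27) and 6.12 CPM in NC (5.39 to 6.91), with overlapping intervals. The log2 fold was -0.18 (-0.46 to 0.11), and the interval held equality except with the authors' denominators (-0.57 to -0.0058). miR-296 had 26 counts in HC and 38 in NC, or 0.796 CPM (0.520 to 1.17) and 0.908 CPM (0.642 to 1.25). Its log2 fold was -0.19 (-0.97 to 0.57), so a level 1.96-fold lower or 1.48-fold higher in HC would lie at the ends of its counting interval.

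The proportion between miR-296 and miR-298 was also similar. miR-296 was 12.8% of their summed counts in HC (26 of 203, 8.54 to 18.2%) and 12.9% in NC (38 of 294, 9.31 to 17.3%). The difference between their log2 folds was -0.02 (-0.85 to 0.80). Their sum had a log2 fold of -0.18 (-0.44 to 0.09).

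**Figure D3:**
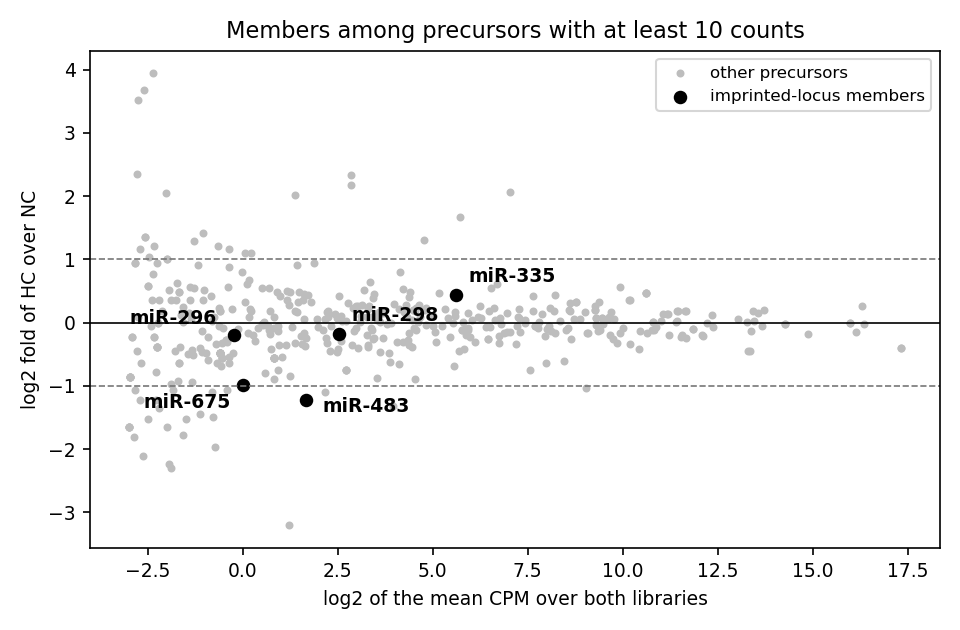
Log2 fold of HC over NC against the log2 of the mean CPM for precursors with at least 10 counts over both libraries and counts in each, with the members in black and dashed lines at a 2-fold difference. miR-483 (-1.22) lies below the lower dashed line, miR-675 (-0.99) on it, and the other 3 members between the lines.

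The members were then compared with each other, in 10 pairs, by the difference of their log2 folds with an exact conditional interval. The scaling of the libraries cancels in this difference. In 6 pairs the interval excluded 0 and in 4 it held 0. The 10 pairs reuse the same member counts and are not separate results. The share of separated pairs among all precursors was not computed. For single precursors, 119 of the 473 with at least 10 counts had an interval above equality and 133 had one below. miR-483 stood apart from miR-335 by -1.66 (-2.11 to -1.23), from miR-298 by -1.04 (-1.57 to -0.53) and from miR-296 by -1.03 (-1.91 to -0.13). miR-675 stood apart from miR-335 by -1.43 (-2.22 to -0.69) and from miR-298 by -0.82 (-1.65 to -0.02), the last only narrowly. miR-335 stood apart from miR-298 by 0.62 (0.32 to 0.92). Thus the H19-Igf2 products lay lower in HC relative to both miR-335 and miR-298. The pairs that were not separated were those inside a locus and those of miR-296 with miR-675 and with miR-335. For miR-675 against miR-483 the difference was 0.23 (-0.67 to 1.10), which leaves room for unequal change.

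**Figure D4:**
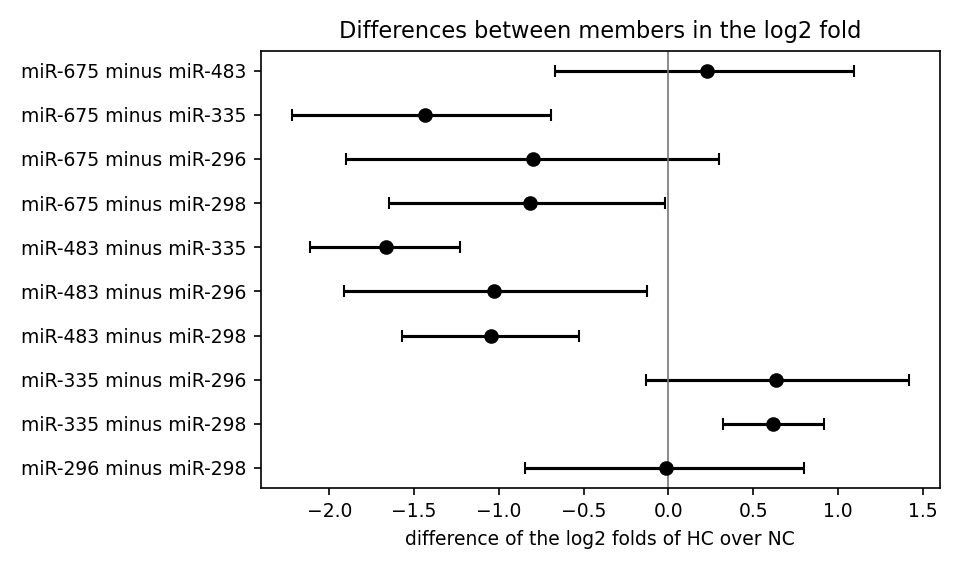
Difference of the log2 folds of HC over NC for each of the 10 pairs of members (first minus second), with the exact 95% conditional interval of counting error. The intervals of miR-483 against miR-335, miR-298 and miR-296 lie below 0, and those within the H19-Igf2 and Gnas loci span it.

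The precursors most like each member were taken as the 2 at the smallest distance in log2 CPM over the 2 libraries, a likeness that rests on 2 values each. For miR-335 they were miR-652 (distance 0.19, log2 fold 0.17) and miR-345 (0.25, log2 fold 0.10). For miR-483 they were miR-200c (0.57, log2 fold -0.85), an epithelial miRNA, and miR-34b (0.61, log2 fold -0.38). For miR-675 they were miR-1955 (0.45, log2 fold -0.48) and miR-667 (0.50, log2 fold -0.64), the latter from the Dlk1-Dio3 cluster. miR-298 had miR-1191b (0.06) and miR-1963 (0.11) nearby, and miR-296 had miR-3098, with the same counts in both libraries, and miR-8103 (0.07). The distances of miR-483 and miR-675 were larger than those of the other members, and all 4 of their neighbours had a smaller difference between the libraries than they did. Distance and fold rest on the same 2 values. Only 20 of 473 precursors had a lower log2 fold than miR-483, and 27 had a lower one than miR-675. Neighbours with a smaller difference are therefore likely from that position alone, and nothing is concluded from them.

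Markers of other cell types that differed between the libraries are given beside the lower miR-483 and miR-675. All 7 epithelial precursors listed (miR-200a, miR-200b, miR-200c, miR-141, miR-429, miR-203 and miR-205) were lower in HC by their counting intervals. Their summed level was 139.5 CPM in HC and 187.8 in NC, a log2 ratio of -0.43. Of all 473 precursors with at least 10 counts, 28.1% had an interval below equality. miR-200a, miR-200b and miR-429 lie close together on chromosome 4, and miR-141 and miR-200c on chromosome 6, so the 7 may not vary separately. Of 3 neuronal precursors in the files, miR-9-1 and miR-9-2, which hold the same counts, were lower at -0.74, and the sum with miR-124-1 was 10.6 against 17.4 CPM. No listed marker found in the files was at 0 in either library. The summed leukocyte markers were 2303 CPM in HC and 2298 in NC, most of it miR-142a (0.01), while miR-150 was lower in HC at -0.75 and miR-223 higher at 0.44. The 2 erythrocyte markers summed to 608.8 against 467.9 CPM and the 2 smooth muscle markers had a log2 ratio of -0.14. Beside the higher miR-335, the mesenchymal miR-199a, in 2 precursors, had a log2 fold of 0.13 and miR-214 of -0.01, with a sum over these 3 of 4893 against 4467 CPM. The part of these cell types in the members' values was not tested.

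Other imprinted miRNAs were taken from 2 lists. Of 58 listed precursors of the Dlk1-Dio3 cluster, whose miRNAs are expressed from the maternal copy in growing muscle, 20 had a mean of at least 10 CPM. None of these passed the size rule, and their median log2 fold was 0.08, beside 0.00 for all 222 compared. The most abundant were miR-127 (0.05), miR-411 (-0.17) and miR-434 (0.56). With at least 10 counts, 4 of 49 were called higher and 1 lower, beside 6.77% of 473 precursors called in either direction. Those higher in HC were miR-412 (47 against 28 counts, log2 fold 1.10), miR-494 (35 against 20, 1.16), miR-1197 (10 against 1, with an interval of 0.87 to 9.12) and miR-3072 (8 against 2, 0.03 to 5.63). The lower one was miR-758 (3 against 18, -4.63 to -0.45). The direction of the median depended on the scaling, with -0.032 under the authors' denominators.

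The Sfmbt2 gene on chromosome 2 is known as an imprinted gene expressed from the paternal copy, and it carries a large rodent miRNA cluster in an intron. The counts do not show which copy was used in this muscle. Of 72 listed precursors of that cluster none reached a mean of 10 CPM, and 26 had at least 10 counts. All 26 had a log2 fold below 0, as had 254 of all 473, with a median of -0.49 beside -0.05. The 26 held only 11 distinct pairs of counts and are therefore not separate measurements. By the size rule at that depth, miR-467e (8 against 28 counts, -1.45) and miR-669a-2 (16 against 43 counts, -1.07) were called lower and none was called higher, beside 3.17% of the 473 called lower. Above 1 CPM on average, the 8 compared precursors had 3 distinct pairs of counts and a median of -0.56. The most abundant were miR-467d at -0.35 (-0.83 to 0.11) and the copies of miR-467a at -0.56 (-1.11 to -0.04). The difference between these clusters and the members was not tested.

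**Figure D5:**
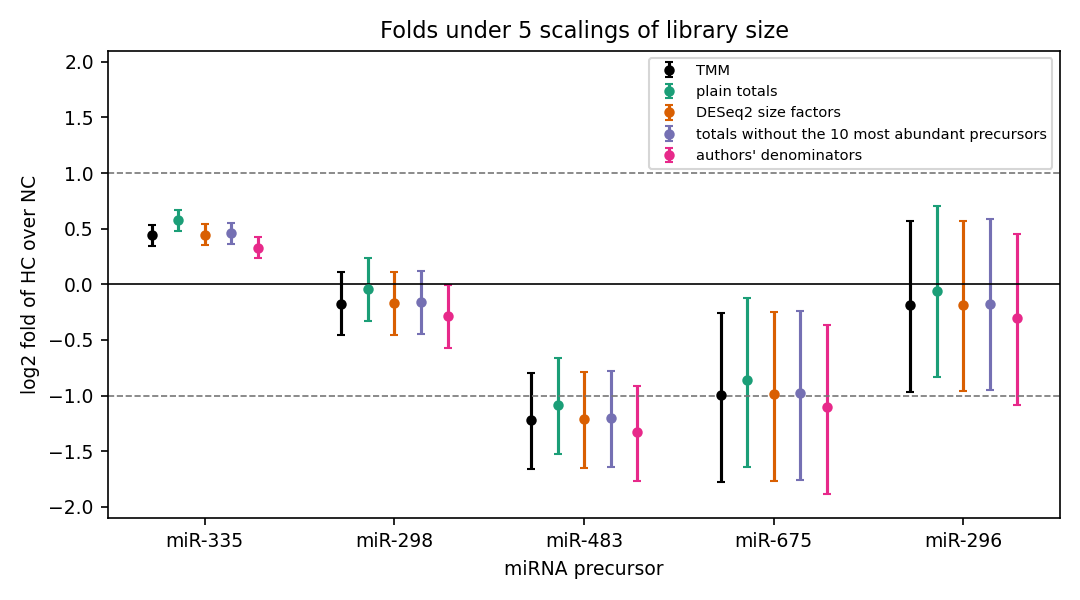
Log2 fold of HC over NC of each member under 5 scalings of library size, with exact 95% counting intervals and dashed lines at a 2-fold difference. miR-483 stays at or beyond -1.09, miR-675 lies between -0.86 and -1.10, and miR-335 between 0.33 and 0.58, while intervals for miR-296 reach both sides of 0 in every scaling.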

How the data were processed

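Small RNA libraries were prepared with the Illumina TruSeq kit from Trizol and mirVana extracts, per the labels' protocols. Per the submitters' processing notes, HTSeq 0.5.4, TopHat2 2.0.10 and CASAVA 1.8.2 were used with mm10. Not given in the sources used here: roles of the tools, trimming, multiply aligned reads and the strand setting. The deposited files hold whole-number counts per precursor and 5 summary rows, which stayed out of library sizes. The row for counts outside all precursors held 55.9% of listed counts in HC and 44.1% in NC. A further column, RPM per the file headers, is a signal that the authors scaled by a constant per library, of unknown meaning.

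Counts were scaled by TMM (edgeR 4.0.16, R 4.3.3; no edgeR test). Folds are ratios without a pseudocount, with exact conditional binomial (Clopper-Pearson) intervals from scipy 1.17.1. Without molecular identifiers, reads may repeat molecules, and intervals cover counting error only. They take the scaled library sizes as known. Alternatives were plain totals, DESeq2 1.42.0 size factors, the authors' denominators, totals without the 10 most abundant precursors, and other limits on CPM and fold. The procedure was tested on simulated counts.

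Named were all 5 members, the list members past the size rule or otherwise the 3 most abundant, and the 2 nearest precursors of each member. The members and lists were chosen with earlier results of these data known. All 1187 precursors had the coordinates of a GENCODE M21 miRNA gene. Sequences are from RefSeq.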

Additional observations from a re-analysis of the deposited data

Results flagged for a closer look

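Counts outside all miRNA precursors, which no comparison used, made up 55.9% of the listed counts in HC and 44.1% in NC, and were singled out because the share exceeded that of the control library. Their part in the members' values was not tested.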

How the results depend on the processing

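The number of members past the size rule was 0 at 10 CPM, and 0 with every other scaling and at 1.5-fold. At 50 CPM no member was compared, because miR-335 had a mean of 49.4 CPM, so the 0 there was fixed in advance. The number was 1 (miR-483) at 1 CPM and 1 with at least 10 counts, because these limits admit members that the main limit leaves out. In combinations chosen after seeing the data, all with at least 10 counts, it was 1 with plain totals, 1 with DESeq2 size factors, 1 with totals without the 10 most abundant precursors, 2 with the authors' denominators and 2 at 1.5-fold. The log2 fold of miR-335 was 0.33 under the authors' denominators and 0.58 with plain totals, since these shift every log2 fold by -0.11 and 0.13, respectively. No log2 fold of a member changed sign under the 4 other scalings. The Dlk1-Dio3 median was -0.032 under the authors' denominators, 0.21 with plain totals and 0.17 with at least 10 counts. The Sfmbt2 median stayed below 0 in its 5 alternatives and had no value at 10 or 50 CPM. No paired analysis was possible because each group held 1 library, and for the same reason no replicate could be left out. Depth limits miR-675 and miR-296 most, with 78 and 64 counts over both libraries.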
